A study of Homo sapiens with 4 samples.

Results

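Mitochondrial ribosomal proteins are the nuclear-encoded protein subunits of the ribosome that works inside mitochondria. They were taken as the rows annotated as protein-coding whose gene name starts with MRPL (large subunit) or MRPS (small subunit) followed by a digit. This gave 78 of the 57773 genes in each deposited table, 48 named for the large subunit and 30 for the small subunit. The 78 rows carry 76 distinct symbols, because MRPL30 and MRPS17 have 2 rows each, written here as MRPL30_1, MRPL30_2, MRPS17_1 and MRPS17_2. The rule itself uses names alone and no measured value, but it was set with earlier results of these data known.

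Transcripts were measured by RNA sequencing in 4 libraries of A2780 cells, a long-established line from a human ovarian carcinoma, with WT as the genotype label. Libraries DMSO 1 and DMSO 2 received DMSO, the vehicle, with no exposure time of their own stated. Libraries wogonin 3 and wogonin 4 received wogonin, a flavone made by plants, at 10 ug/mL for 48 h. The study asked whether wogonin slows ovarian cancer through loss of DNA methylation, and these libraries report transcript levels alone. No label ties the libraries of a group to separate cultures, so each p-value reflects variation among these samples alone, and that may be technical variation. Each library held 11005921 to 11839562 exon reads. The epithelial and ovarian markers PAX8, WT1, MUC16, EPCAM, KRT7, KRT8, KRT18 and KRT19 had at most 9 reads in any library, so the labelled epithelial type is not seen in these markers, and the identity of the line was not checked further. Among genes of other cell types ACTA2 was at 246, 243, 463 and 384 TPM in DMSO 1, DMSO 2, wogonin 3 and wogonin 4. COL3A1 was at 474, 448, 354 and 331 TPM in the same order, and COL1A1 at 5.56, 4.59, 2.88 and 2.91 TPM. PTPRC and VWF had 0 reads in every library, CD14 had at most 3 and ALB at most 7. ACTA2 was thus higher and COL3A1 lower after wogonin, and the part of such shifts in the results was not tested. In cultures measured in bulk, a change in the make-up of the cells and a change in RNA per cell cannot be told apart.

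The mitochondrial ribosome makes the few proteins encoded by mitochondrial DNA, all of them membrane subunits of the respiratory chain and the ATP synthase. Its RNAs come from mitochondrial DNA, whereas every protein subunit is made in the cytosol from a nuclear gene and imported. Part of its proteins descend from bacterial ribosomal proteins, and the rest are additions found in mitochondria alone.

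Transcripts of mitochondrial ribosomal proteins moved in both directions after wogonin. Of the 77 members tested, 32 rose and 13 fell at an adjusted p under 0.05 (edgeR quasi-likelihood test, Benjamini-Hochberg over the 13449 genes tested), and 32 did not pass. Over all genes tested, 63.8% were called, 32.3% higher and 31.5% lower. Among the members 41.6% were higher and 16.9% lower, so 58.4% were called, a share near that of all genes. With TMM scaling the members' median log2 fold change was 0.17, beside -0.00066 over all genes tested. Without it, on library totals alone, the split of the members was 24 higher and 20 lower. That scaling moved the median of the members to 0.077 and that of all genes tested to -0.093. The share of all genes called on library totals is not given here, so the 24 and 20 have no background beside them.

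The changes of the members were small. The 32 rises ran from 0.24 to 0.95 log2 units and the 13 falls from -0.25 to -0.78. A change of at least 0.5 log2 units was reached by 9 members that rose and 4 that fell, where 18.3% and 21.3% of all genes tested passed the same size and threshold. The DMSO and wogonin libraries did not overlap in 61 members, against 81.9% of all genes tested. All 45 called members were among those 61, and the other 16 missed the threshold.

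**Figure D1:**
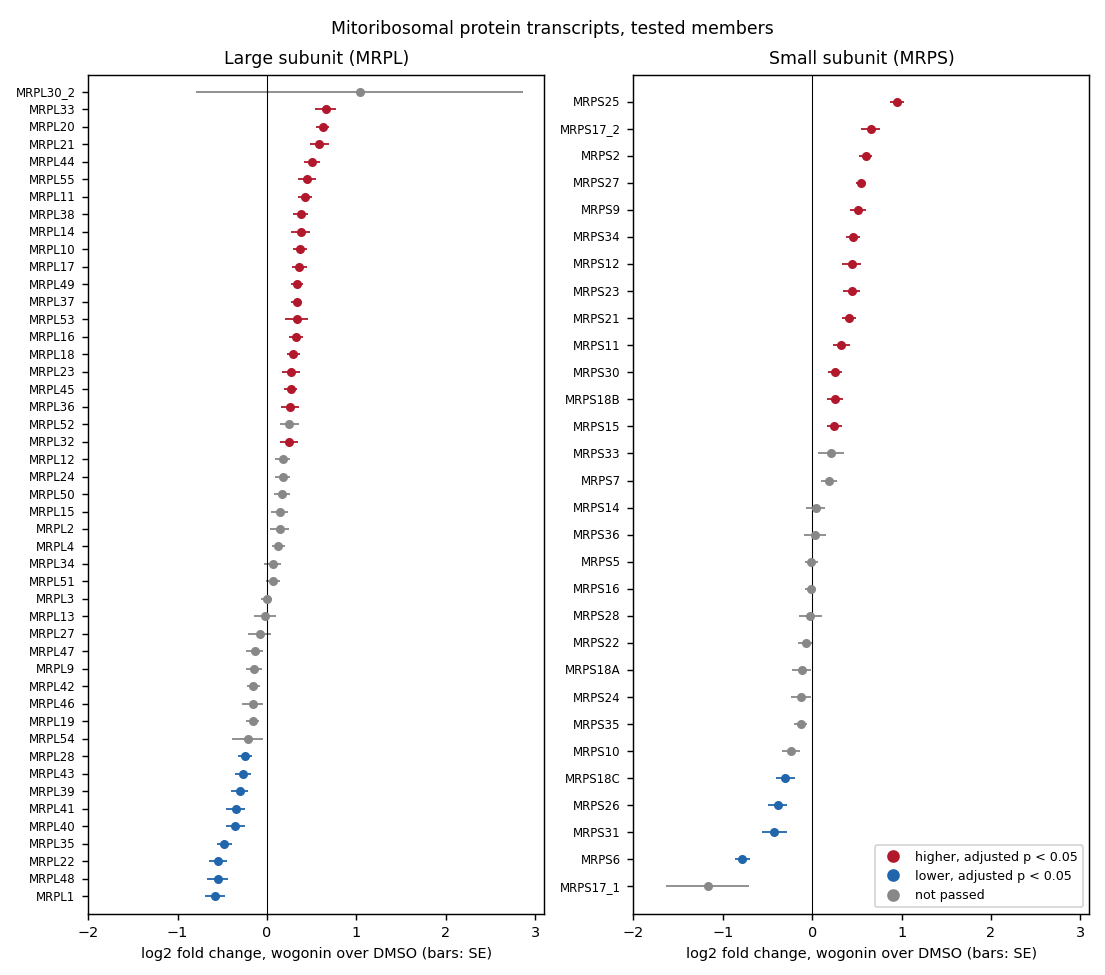
Log2 fold change of wogonin over DMSO for each of the 77 tested members, large subunit on the left and small subunit on the right, with the standard error as a bar; red points passed as higher, blue as lower and grey did not pass. The red points reach 0.95 (MRPS25) and the blue ones -0.78 (MRPS6), while MRPL30_2 and MRPS17_1 have the widest bars.

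The 2 directions were shared between the subunits. Of 47 large-subunit members tested, 19 rose, 9 fell and 19 did not pass, with a median of 0.17. Of 30 small-subunit members, 13 rose, 4 fell and 13 did not pass, with a median of 0.11. Of all genes tested in the main setting, 32.3% were higher and 31.5% lower. On library totals 7 small-subunit members were lower, a setting that moved the median of all genes tested to -0.093. The share of all genes called on library totals is not given here. Proteins listed with a bacterial counterpart gave 20 rises and 6 falls among 47 tested. Those listed as found in mitochondria alone gave 12 rises and 7 falls among 29, with medians of 0.17 in both.

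Promoters of 6 members, 3 that rose and 3 that fell, are printed here because they carry short sequences found in many genes of the set. They are the 3 largest rises and 3 largest falls among members with at least 90% of exon reads placed at a unique site and with at least 1 of the sequences CCGGAAG and AAGATGGC in the window. CCGGAAG is a core bound by ETS factors, to which GABP belongs, and AAGATGGC is a core bound by YY1. Both strands were searched, and the cores do not overlap each other in these windows. The windows come from RefSeq on GRCh38.p14, run 5′ to 3′ on the strand of the gene and cover 120 bases before and 30 bases from its start. Capitals mark each match, with CTTCCGG the reverse complement of CCGGAAG.
MRPL20, chr1:1407264-1407413, minus strand: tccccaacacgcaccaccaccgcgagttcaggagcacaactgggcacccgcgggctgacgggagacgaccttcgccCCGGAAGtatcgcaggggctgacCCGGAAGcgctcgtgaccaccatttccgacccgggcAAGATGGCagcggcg
MRPS27, chr5:72320211-72320360, minus strand: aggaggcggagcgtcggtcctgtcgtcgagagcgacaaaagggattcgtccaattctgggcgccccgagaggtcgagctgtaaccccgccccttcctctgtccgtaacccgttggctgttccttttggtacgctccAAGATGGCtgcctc
MRPS34, chr16:1773105-1773254, minus strand: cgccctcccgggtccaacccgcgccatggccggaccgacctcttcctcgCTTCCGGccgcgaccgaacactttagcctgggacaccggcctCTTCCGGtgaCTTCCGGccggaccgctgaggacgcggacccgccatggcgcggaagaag
MRPL48, chr11:73787754-73787903, plus strand: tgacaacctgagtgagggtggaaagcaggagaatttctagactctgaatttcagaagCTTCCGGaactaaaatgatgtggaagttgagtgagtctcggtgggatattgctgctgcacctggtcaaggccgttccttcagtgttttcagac
MRPS31, chr13:40771161-40771310, minus strand: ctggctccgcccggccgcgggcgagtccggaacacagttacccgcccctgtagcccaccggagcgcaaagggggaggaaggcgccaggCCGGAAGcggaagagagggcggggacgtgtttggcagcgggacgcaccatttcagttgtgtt
MRPS26, chr20:3045932-3046081, plus strand: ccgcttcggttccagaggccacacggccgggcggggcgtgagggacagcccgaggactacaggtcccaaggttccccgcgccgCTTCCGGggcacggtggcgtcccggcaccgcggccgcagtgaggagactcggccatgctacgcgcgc

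The first 3 of these genes rose and the last 3 fell. The ETS core stands in promoters of both kinds, but the windows were picked for holding a core, so this says nothing about direction. Its matches begin at -44 and -21 from the start in MRPL20, at -71, -29 and -19 in MRPS34, at -63 in MRPL48, at -32 in MRPS31 and at -37 in MRPS26. The YY1 core begins at 16 in MRPL20 and at 17 in MRPS27, counted from 1 at the first transcribed base.

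Over the set, 67 of the 76 symbols had a RefSeq promoter of 250 bases before and 50 bases from the start. CCGGAAG was found in 28 of the 67 (41.8%), beside 10.7% of 27305 promoters of all genes and 19.6% of those of genes tested. AAGATGGC was found in 20 (29.9%), beside 3.03% and 5.68%. A TATAAA match was in 2 of the 67, beside 11.95% of all promoters and 4.88% of those of genes tested. The palindromic NRF1 sequence was in 1 (1.49%), beside 1.36% and 2.42%.

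Grouped by these letters, the 28 members with CCGGAAG held 9 rises and 7 falls with a median log2 fold change of -0.01. The 39 without it held 20 rises and 5 falls with a median of 0.24. The 20 members with AAGATGGC held 9 rises and 1 fall with a median of 0.22, and the 47 without it 20 rises and 11 falls with a median of 0.17. Over all genes tested with a promoter, 43.8% of those with CCGGAAG were higher and 23.1% lower (median 0.15), and 30.8% and 35.0% of those without it (median -0.04). For AAGATGGC these were 39.2% and 28.8% with it (median 0.07) and 33.0% and 32.9% without it (median -0.01). The median was thus lower with CCGGAAG than without it among the members and higher among all genes, a contrast that was not tested. A match is a description of the letters, and no binding was measured.

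By level, the members spanned 1.87 to 344 TPM (a read count corrected for exon length and library size) as means over the 4 libraries, with a median of 72.8 TPM. The highest was MRPS34, a mitochondria-specific protein of the small subunit, at 313 and 298 TPM in DMSO 1 and 2 and 416 and 348 TPM in wogonin 3 and 4. MRPS21, also of the small subunit, was at 228, 216, 294 and 242 TPM in the same order. MRPL18, a protein of the large subunit's central protuberance, was at 223, 238, 268 and 244 TPM. In each of these 3 genes both wogonin libraries lay above both DMSO libraries, and all 3 rose, by 0.46, 0.41 and 0.29 log2 units (adjusted p = 7.8e-05, 0.00032 and 0.0022). MRPL41, a mitochondria-specific large-subunit protein, was as abundant, at 289, 275, 232 and 171 TPM, and fell by 0.35 (adjusted p = 0.014). Its call was lost without DMSO 1 (adjusted p = 0.087) or wogonin 4 (-0.18, 0.096) and with the GC trend removed (-0.18, 0.11). MRPS21, MRPL18 and MRPL41 are neighbours in this order, and their levels overlap over the 4 libraries.

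The largest rise in the set belonged to the small subunit. MRPS25, found in mitochondrial ribosomes alone and lying at chr3:15083967-15106842 on the minus strand (GRCh37, as the files give it), was at 55.5 and 58.2 CPM in DMSO 1 and 2 and at 109.8 and 109.7 CPM in wogonin 3 and 4 (CPM, counts scaled to library size with TMM factors). Both wogonin libraries stood well above both DMSO libraries, and the log2 fold change was 0.95 (SE 0.07, edgeR adjusted p = 1.3e-08). Only 39.1% of its exon reads were placed at a unique site. It overlaps NR2C2 on the other strand, a gene that fell by 0.30 log2 units. In the uniquely placed reads MRPS25 rose by 0.79.

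MRPS27, a pentatricopeptide repeat protein of the small subunit, had the most reads of any small-subunit member. It was at 209 and 198 CPM in the DMSO libraries and at 295 and 300 CPM in the wogonin libraries, with no overlap. It rose by 0.55 log2 units (SE 0.06, adjusted p = 4.0e-07), and all its exon reads were uniquely placed.

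MRPS2 and MRPS9 are small-subunit proteins with bacterial counterparts. MRPS2 was at 66.5, 65.01, 97.2 and 102.1 CPM in DMSO 1, DMSO 2, wogonin 3 and wogonin 4, and MRPS9 was at 32.4, 33.4, 47.1 and 46.6 CPM. Both wogonin libraries exceeded both DMSO libraries in each gene, and the rises were 0.60 and 0.51 log2 units (adjusted p = 2.3e-06 and 0.00011). MRPS2 had 32.2% of its exon reads uniquely placed, and those gave 0.79.

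In the large subunit the 3 largest rises were proteins with bacterial counterparts. MRPL33 was at 15.6 and 18.6 CPM in the DMSO libraries and at 27.4 and 26.6 CPM in the wogonin libraries. MRPL20, whose bacterial counterpart binds the ribosomal RNA early in assembly, was at 61.2 and 65.3 CPM and then 99.3 and 95.7 CPM. MRPL21 was at 35.7 and 31.2 CPM and then 54.6 and 45.7 CPM. The groups stood apart in all 3, least so in MRPL21, where the wogonin libraries differed from each other by more than in the other 2 genes. The rises were 0.66 (SE 0.12), 0.62 (SE 0.07) and 0.59 (SE 0.11) log2 units, with adjusted p = 0.00012, 1.9e-06 and 0.00017.

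**Figure D2:**
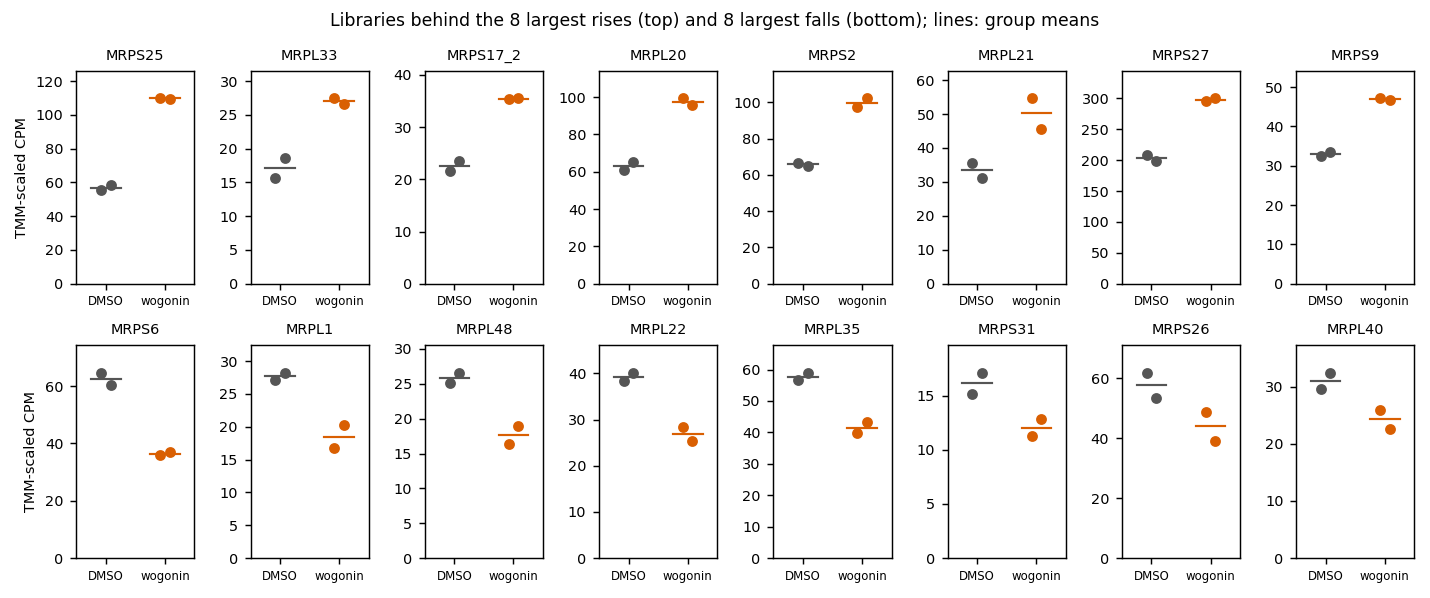
TMM-scaled CPM in each library for the 8 largest rises (top row) and the 8 largest falls (bottom row) among members that passed with no overlap between groups; points are libraries and lines are group means, on linear axes that start at 0. MRPS25 goes from 55.5 and 58.2 CPM to 109.8 and 109.7 CPM, and MRPS6 from 64.6 and 60.4 CPM to 35.9 and 36.9 CPM.

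The largest fall was also in the small subunit. MRPS6, a protein with a bacterial counterpart at chr21:35445524-35515334 on the plus strand (GRCh37), was at 64.6 and 60.4 CPM in the DMSO libraries and at 35.9 and 36.9 CPM in the wogonin libraries. The groups were far apart, and the log2 fold change was -0.78 (SE 0.09, adjusted p = 7.2e-07). It shares its region and strand with SLC5A3, and 18.2% of its exon reads were uniquely placed. Those gave -0.81.

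In the large subunit 3 proteins with uniquely placed reads fell the most. MRPL1, which builds the mobile stalk beside the tRNA exit, was at 27.1 and 28.2 CPM and then 16.8 and 20.2 CPM. MRPL48, a mitochondria-specific protein of the central protuberance, was at 25.1 and 26.6 CPM and then 16.3 and 18.9 CPM. MRPL22, which lines the tunnel for the growing chain, was at 38.3 and 40.1 CPM and then 28.4 and 25.3 CPM. No wogonin library reached the lowest DMSO library in these 3 genes, and they fell by 0.58, 0.55 and 0.55 log2 units (adjusted p = 0.00037, 0.00056 and 0.00015). All of their exon reads were uniquely placed.

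MRPL35, a large-subunit protein with a bacterial counterpart, was at 56.6, 59.0, 39.7 and 43.4 CPM in DMSO 1, DMSO 2, wogonin 3 and wogonin 4. The groups did not overlap, and it fell by 0.48 log2 units (SE 0.09, adjusted p = 0.00014). Reads that span an exon-exon junction gave -0.01 for it (adjusted p = 0.95), so the fall was not seen in those reads.

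MRPS31 and MRPS26, mitochondria-specific proteins of the small subunit, fell by 0.42 (SE 0.14, adjusted p = 0.013) and 0.39 log2 units (SE 0.11, adjusted p = 0.0080). MRPS31 was at 15.2 and 17.1 CPM and then 11.3 and 12.8 CPM, and MRPS26 at 61.9 and 53.4 CPM and then 48.9 and 39.3 CPM. The wogonin libraries were lower in both genes, and in MRPS26 the gap was narrow beside the spread within groups. MRPS31 missed the threshold without DMSO 2 (adjusted p = 0.12), without wogonin 3 (0.097), with DESeq2 (0.12) and in total gene reads, where the value was -0.22 (0.20). MRPS26 missed it without DMSO 1 (adjusted p = 0.097) or wogonin 4 (0.055).

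MRPL40, a mitochondria-specific protein of the central protuberance, was at 29.6, 32.5, 25.9 and 22.7 CPM in DMSO 1, DMSO 2, wogonin 3 and wogonin 4, without overlap, and fell by 0.35 log2 units (adjusted p = 0.0092). It lies within HIRA and C22orf39 on the other strand, which rose by 1.04 and fell by 0.59. In its uniquely placed reads, 43.0% of the total, the value was -0.28 (adjusted p = 0.11). Its call was also lost without DMSO 2 (adjusted p = 0.094) or wogonin 4 (adjusted p = 0.078).

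MRPS12, the protein beside the decoding centre, was at 37.3 and 32.7 CPM in the DMSO libraries and at 51.9 and 43.3 CPM in the wogonin libraries. It rose by 0.44 log2 units (adjusted p = 0.0017), and missed the threshold without DMSO 2 (adjusted p = 0.0503). SARS2, the mitochondrial seryl-tRNA synthetase, covers the locus on the other strand and fell by 0.68, and 19.6% of the exon reads of MRPS12 were uniquely placed.

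MRPL12, the flexible stalk protein that also binds the mitochondrial RNA polymerase, was at 50.6, 49.9, 59.4 and 54.2 CPM. The wogonin libraries were higher, but the change of 0.18 did not pass (adjusted p = 0.072), and it passed without wogonin 4 (0.24, adjusted p = 0.046). Only 3.16% of its exon reads were uniquely placed, and it lies almost wholly within the 2 rows of SLC25A10.

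The 3 relatives of the bacterial protein S18 gave 3 different results. In the grouping by origin MRPS18C was counted as having a bacterial counterpart, and MRPS18A and MRPS18B as found in mitochondria alone. MRPS18B, at 55.7, 62.3, 66.5 and 74.3 CPM in DMSO 1, DMSO 2, wogonin 3 and wogonin 4, rose by 0.25 log2 units (adjusted p = 0.015, which was 0.22 without DMSO 1 and 0.16 without wogonin 4). MRPS18C, at 37.3, 32.6, 27.9 and 28.9 CPM, fell by 0.30 (adjusted p = 0.017, which was 0.15 without DMSO 1 and 0.077 without wogonin 3). MRPS18A, which sits in the large subunit despite its name, had a value of -0.12 that did not pass (adjusted p = 0.32). In uniquely placed reads MRPS18C was at 0.0047 (adjusted p = 0.97). It overlaps FAM175A on the other strand, which fell by 0.53. MRPS36, a small-subunit member by name that belongs to the oxoglutarate dehydrogenase complex, was at 16.6, 16.5, 16.5 and 17.3 CPM, with a value of 0.03 (adjusted p = 0.83).

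Many members share their locus with another gene. Of the 78 members, 44 had at least 99% of exon reads uniquely placed, and 16 had under 50%. All 16 overlapped another protein-coding gene, as did 10 of the 44, so an overlap alone does not set the share. Members with 50% or more gave 25 rises and 11 falls among 61 tested, and the 16 others gave 7 rises and 2 falls.

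On uniquely placed reads alone 29 members rose and 13 fell among 73 tested, where 32.2% and 32.4% of the 12394 genes tested were higher and lower. Of the main calls, 28 rises and 11 falls were made again. MRPL38, with 8.62% of its reads uniquely placed, gave 0.39 (adjusted p = 0.16), and MRPL49, with 15.5%, gave 0.22 (adjusted p = 0.11). MRPL49 lies within SYVN1 and next to FAU on the other strand, which rose by 0.69 and 0.63 log2 units. MRPL53 (1.26% unique) and MRPS17_2 (2.14% unique) had too few such reads to be tested. MRPS16, which shares part of its locus and strand with DNAJC9, was at -0.02 in all exon reads and at -0.37 in the 21.3% that were uniquely placed.

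**Figure D3:**
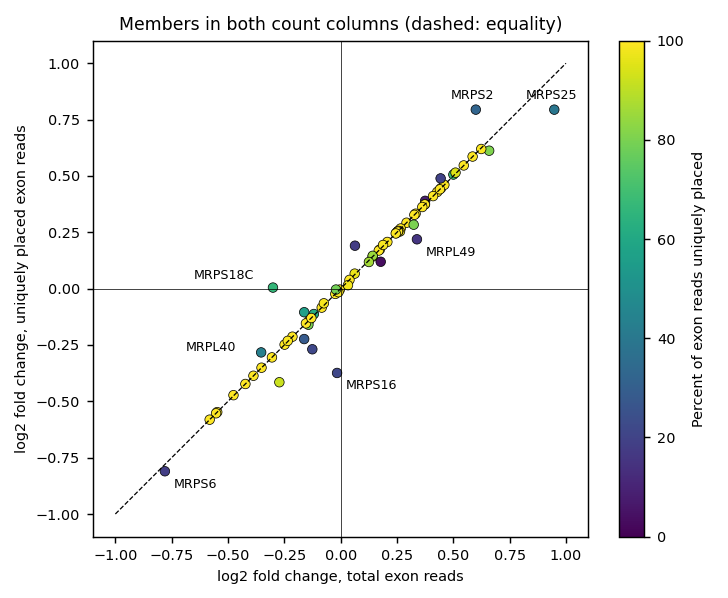
Log2 fold change in all exon reads (horizontal) and in uniquely placed exon reads (vertical) for the 73 members tested in both; each point is a member, coloured by the percent of its exon reads that were uniquely placed, and the dashed line marks equal values. Most points lie on the line, and MRPS2, MRPS18C and MRPS16 lie off it.

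MRPS17, a small-subunit protein with a bacterial counterpart, has its reads divided between 2 overlapping rows that went opposite ways. MRPS17_2 was at 21.6 and 23.5 CPM in the DMSO libraries and at 35.5 CPM in both wogonin libraries, and rose by 0.65 (adjusted p = 3.2e-05). MRPS17_1, a longer row that also spans ZNF713, had 90, 83, 16 and 53 reads and a value of -1.17 (adjusted p = 0.072), and without wogonin 4 it was called, at -2.27 (adjusted p = 8.4e-08). Summed over both rows, MRPS17 was at 29.3, 30.3, 37.0 and 40.4 CPM, with the wogonin libraries higher; the sum was not tested.

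MRPL30, a large-subunit protein with a bacterial counterpart, cannot be measured in these tables. MRPL30_1 had 7, 1, 7 and 7 reads and was not tested, and MRPL30_2 had 43, 0, 17 and 63 reads with a value of 1.04 (SE 1.83, adjusted p = 0.68). DMSO 2 stands apart with 1 read over both rows, while the other libraries had 24 to 70.

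Summed over members, the large subunit's share of exon reads was 0.245% and 0.247% for DMSO 1 and 2, then 0.257% and 0.245% for wogonin 3 and 4. The groups overlapped, and the log2 ratio of means was 0.03 (SD 0.05). For these ratios SD is the root of the summed variances of the log2 values within each group. It describes single libraries and is not an error of the ratio. The small subunit took 0.168%, 0.169%, 0.186% and 0.180%. Both wogonin libraries were higher, with a log2 ratio of 0.12 (SD 0.03). The 95% Wilson intervals reached 0.172% in the DMSO libraries and began at 0.178% in the wogonin libraries. They cover counting error only, and the members' counts varied beyond it between the DMSO libraries (chi-square over degrees of freedom 2.84). The gap between the intervals is therefore no test of the groups. Genes of the mitochondrial chromosome took 1.65%, 1.45%, 1.67% and 3.03% of exon reads, highest in wogonin 4, and with them left out the ratios were 0.04 and 0.13.

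There were thus fewer large-subunit reads for each small-subunit read after wogonin. The quotient was 1.46 in both DMSO libraries, 1.38 in wogonin 3 and 1.36 in wogonin 4, without overlap and with a log2 ratio of -0.09 (SD 0.02). With 2 libraries on each side the smallest p of an exact permutation test is 0.333, so this quotient is given as a description. MRPS27 weighs heavily in it: without that gene the quotients were 1.67, 1.66, 1.63 and 1.62, and the small subunit's share was 0.146%, 0.149%, 0.157% and 0.151%. Reads across exon-exon junctions showed no such order, at 1.63, 1.62, 1.65 and 1.60. On deposited TPM the quotients were 1.68, 1.68, 1.62 and 1.60, while the summed TPM of the small subunit overlapped between the groups (2748, 2790, 2994 and 2738).

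**Figure D4:**
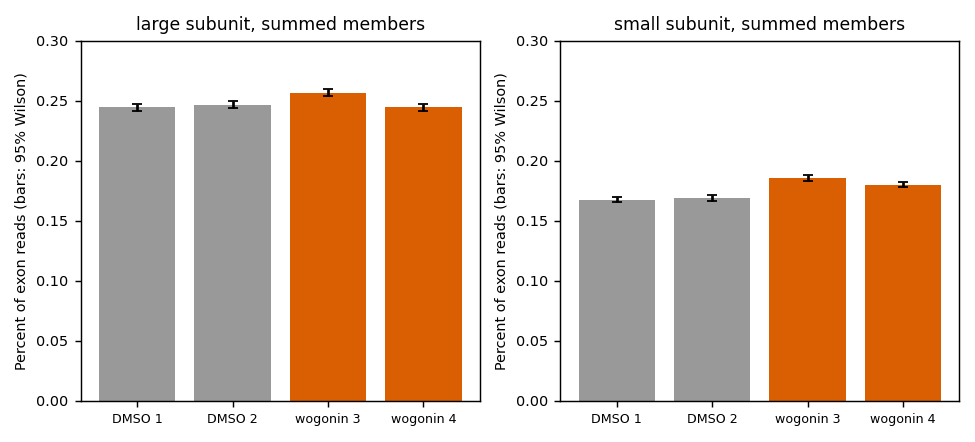
Percent of all exon reads taken by the summed large-subunit (left) and small-subunit (right) members in each library; bars start at 0 and whiskers are 95% Wilson intervals, which cover counting error only. The large subunit stays between 0.245% and 0.257%, and the small subunit goes from 0.168% and 0.169% to 0.186% and 0.180%.

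Placed on the structure of the ribosome, the calls were mixed within regions, which were listed after the values had been seen. The central protuberance is where the large subunit meets the head of the small one. Of the 9 proteins listed there, 3 rose (MRPL18, MRPL38 and MRPL55) and 3 fell (MRPL40, MRPL48 and ICT1). These shares, 33.3% each way, were near those of all genes tested, 32.3% higher and 31.5% lower. In exon-exon reads MRPL55 was not called (0.18, adjusted p = 0.27). At the stalk that recruits translation factors MRPL10 and MRPL11 rose, by 0.37 and 0.43 log2 units, and MRPL12 did not pass. Around the tunnel exit MRPL17, MRPL23 and MRPL45 rose, by 0.36, 0.27 and 0.26, MRPL22 fell, and MRPL24 and MRPL47 did not pass. MRPL23 missed the threshold without DMSO 2 (0.15, adjusted p = 0.32) or wogonin 3 (0.15, 0.28), with DESeq2 (0.11) and on library totals (0.17, 0.15). MRPL45 missed it without DMSO 1 (0.20, adjusted p = 0.079) and on library totals (0.17, 0.055). MRPL45 anchors the ribosome at the inner membrane. It was at 69.5 and 74.3 CPM in the DMSO libraries and 85.9 and 86.8 CPM in the wogonin libraries, without overlap.

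Mitoribosomal proteins that carry other names included a gene called about as firmly as MRPS25. DAP3, the GTP-binding protein of the small subunit, was at 216 and 212 CPM in the DMSO libraries and at 352 and 348 CPM in the wogonin libraries. The groups were far apart, and it rose by 0.71 log2 units (SE 0.05, adjusted p = 1.4e-08). PTCD3, a pentatricopeptide repeat protein of the same subunit, was at 155, 145, 109 and 108 CPM and fell by 0.46 (adjusted p = 1.2e-05). AURKAIP1 and CHCHD1, the other small-subunit proteins of this kind, had values of 0.14 and 0.21 that did not pass (adjusted p = 0.20 and 0.12).

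The 3 large-subunit proteins with other names all fell. ICT1, which can release stalled peptides, was at 21.5, 19.8, 14.6 and 11.7 CPM and fell by 0.65 (adjusted p = 0.00044). GADD45GIP1, needed for insertion of the new proteins into the membrane, fell by 0.45, and MRP63 fell by 0.31 (adjusted p = 0.00016 and 0.0067, the latter 0.090 without DMSO 1). With subunits assigned by structure, which moves MRPS18A and MRPS30 to the large subunit, drops MRPS36 and adds these 7, the large subunit had 20 rises and 12 falls among 52 (median 0.14). The small subunit then had 13 rises and 5 falls among 31 (median 0.19), so the order of the medians turned.

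The factors that build and serve this ribosome were also called in both directions. Over all genes tested 63.8% were called, 32.3% higher and 31.5% lower. Of 24 assembly factors, 11 rose and 5 fell (66.7% called, a share near that of all genes), with a median of 0.13. The GTPases MTG2 and NOA1 rose by 0.74 and 0.66, the rRNA methyltransferase FTSJ2 by 0.57 and the helicase DHX30 by 0.32 (adjusted p = 2.9e-06, 3.4e-06, 3.2e-05 and 0.00022). Of 14 translation factors, 7 rose and 1 fell (57.1% called), with a median of 0.27. The elongation factor TUFM was at 346 and 327 CPM and then at 477 and 472 CPM and rose by 0.49 (adjusted p = 8.7e-07). The release factor MTRF1L rose by 0.89, the membrane insertase OXA1L by 0.65 and the recycling factor GFM2 by 0.57.

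Of 21 genes of mitochondrial transcription and RNA upkeep, 11 rose and 2 fell, with a median of 0.21. These are 52.4% higher and 9.52% lower, beside 32.3% and 31.5% of all genes tested. LRPPRC, which stabilises mitochondrial mRNAs, went from 604 and 578 CPM to 950 and 938 CPM, a rise of 0.68 (adjusted p = 2.1e-08). TBRG4 rose by 0.79, the RNA helicase SUPV3L1 by 0.64 and the DNA polymerase subunit POLG by 0.60. The packaging and transcription factor TFAM fell by 0.25 (adjusted p = 0.017). That call was lost in exon-exon reads (-0.06, adjusted p = 0.72), with the GC trend removed (-0.13, 0.17), with DESeq2 (0.10) and without DMSO 2 (0.12) or wogonin 4 (0.083). The RNA polymerase POLRMT had a value of 0.11 that did not pass (adjusted p = 0.22).

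All 9 tested regulators of mitochondrial gene expression were called, 4 higher and 5 lower, with a median of -0.27. Of all genes tested, 63.8% were called. YY1, a zinc-finger factor, is among the higher ones at 0.21 (adjusted p = 0.0042), but it was lower in uniquely placed exon reads (-0.21, adjusted p = 0.0068) and in exon-exon reads (-0.53, adjusted p = 7.8e-05), so its direction depends on the count column. It also missed the threshold without DMSO 1 (0.16, adjusted p = 0.079). The coactivators PPARGC1B and PPRC1 and the receptor ESRRA rose by 1.03, 0.86 and 0.89. GABPA and GABPB1, subunits of the ETS factor GABP, fell by 0.39 and 1.05, and NRF1 fell by 0.71. GABPA was at 79.3 and 80.4 CPM and then at 60.6 and 61.1 CPM, without overlap. PPARGC1A had 0 reads in all 4 libraries, where 3 reads are worth 0.253 to 0.273 CPM.

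Proteins of the cytosolic ribosome moved more uniformly: 72 of 77 rose (93.5%, beside 32.3% of all genes tested) and 5 did not pass, with a median of 0.38. They took 3.46% and 3.41% of exon reads in the DMSO libraries and 4.25% and 3.99% in the wogonin libraries. The difference between the 2 ribosomes was not tested.

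**Figure D5:**
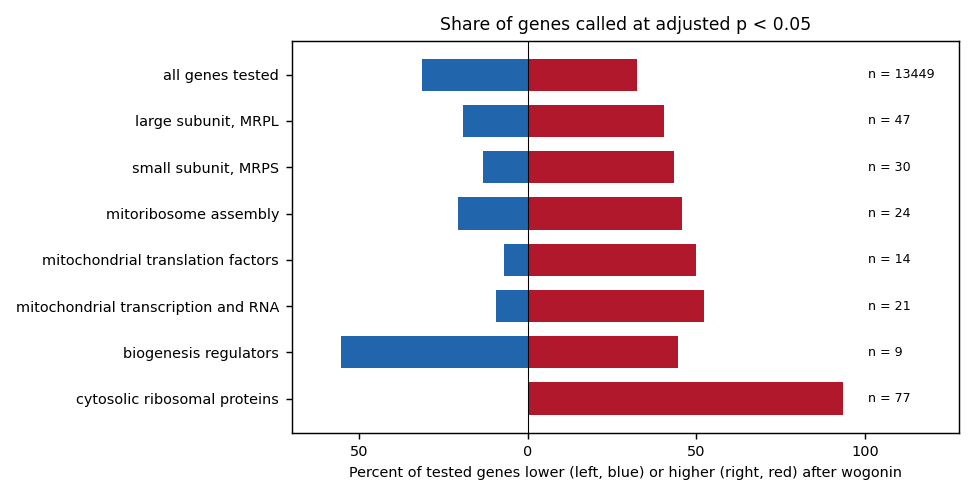
Percent of tested genes called higher (red, to the right) and lower (blue, to the left) at an adjusted p under 0.05, for all genes tested and for each list, with the number tested at the right. The large subunit (40.4% higher, 19.1% lower) and the small subunit (43.3% and 13.3%) lie between all genes (32.3% and 31.5%) and the cytosolic ribosomal proteins (93.5% higher).

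Intron reads, which can come from unspliced RNA, could be tested for 45 members. They rose in 4 (MRPS14, MRPS22, MRPL37 and MRPL10) and fell in 1 (MRPS17_1), where 20.1% of the 10495 genes tested were called, 11.3% higher and 8.82% lower. MRPS17_1 shares 54750 of its 67963 bases, on the same strand, with ZNF713, whose exon reads fell by 0.77. On the other strand MRPS14 overlaps CACYBP (0.25 in exon reads), MRPL37 overlaps CYB5RL (0.11, not passed) and MRPS22 overlaps COPB2 (-0.10, not passed). Which gene gave these intron reads was not tested. MRPS14 had 52 and 81 intron reads in the DMSO libraries and 197 and 207 in the wogonin libraries, and MRPS22 had 103 and 133 and then 308 and 315. Both groups stood apart in these 2 genes, whose exon reads did not pass (0.04 and -0.07 log2 units). Introns took 7.15% of the members' gene reads in wogonin 3, against 4.55%, 4.86% and 6.08% in DMSO 1, DMSO 2 and wogonin 4. Over all genes introns took 7.96% of gene reads in wogonin 3, against 5.26%, 5.29% and 5.61% in the same order. Without wogonin 3, which leaves 1 wogonin library, the intron values kept their direction in the called members. They were 1.64 in MRPS14, 1.42 in MRPS22, 1.49 in MRPL37, 2.62 in MRPL10 and -1.05 in MRPS17_1.

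The members that rose were more GC-rich than those that fell. The median GC content of their transcripts was 51.4% in the risers, 42.1% in the fallers and 44.5% in those that did not pass, beside 48.5% over all genes tested. Over the members, Spearman's rho between the log2 fold change and GC content was 0.26 (n = 75). The members share the 4 libraries, and over all genes tested the same value was 0.05. With a GC trend removed from each library, 34 members rose and 11 fell among 75. The median of all genes tested then moved to 0.038, and the share of all genes called in that setting is not given here.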

How the data were processed

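Members and gene lists were chosen with earlier results of these data known. RNA from a column kit went into SMARTER mRNA libraries, per the labels' protocols. Builds GRCh 37 and hg 19 stand in the submitters' processing notes. The aligner is not given in the sources used here, nor are the counting program, annotation release and strand setting. For each library the authors deposited 1 table with read counts per gene in exons, introns and exon-exon junctions, as totals and as uniquely placed reads. The TPM and RPKM values were computed by the authors from exon counts and exon lengths, and the fraction of unique over total exon reads and of intron over gene reads was also deposited, per the file headers. TPM was used for levels, the unique share was recomputed from counts, and RPKM was only checked.

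The test on total exon counts was that of edgeR 4.0.16 under R 4.3.3 (filterByExpr filter, TMM, robust quasi-likelihood fit, DMSO against wogonin, 2-sided, Benjamini-Hochberg over 13449 genes, threshold 0.05). The test was also run on simulated counts in which few genes changed, in balanced directions, at a shared dispersion. Far more genes were called in these data, so that run does not give the error rate here. SE belongs to the log2 fold change, and CPM is TMM-scaled. Intervals and floors (3 reads) cover counting error only. Because the counting's use of strand is unknown, overlapping genes are uncertain. No 2 libraries were copies: chi-square over degrees of freedom for the members' counts was 2.84 in the DMSO pair, 3.01 in the wogonin pair and at least 17.3 across groups.

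Named are the 8 largest rises and falls without group overlap, MRPS18A, MRPS18B, MRPS18C, MRPL12, MRPS12, MRPS36, the 3 highest and 3 lowest by TPM, mitoribosomal proteins with other names, up to 4 genes per other list by adjusted p, TFAM, POLRMT, NRF1, GABPA, PPARGC1A, and members whose call was not made in uniquely placed reads. Others (MRPS16, MRPS14, MRPS22, MRPL37, MRPL41, YY1, MRPL10, MRPL11, MRPL17, MRPL23, MRPL24, MRPL45, MRPL47, MRPL55) were picked after their values were seen, and the largest cytosolic ribosomal genes are not named. KIAA0391 and PECAM1 were not matched. Alternatives were other scalings, filters, tests (limma-voom 3.58.1, DESeq2 1.42.0) and count columns, length and GC trends (loess, span 0.3; GC from GENCODE transcripts matched by gene ID, for 97.9% of genes tested), and leaving out each library. Exon-exon reads, the removal of mitochondrial genes, intron reads, the quotient of the subunits on TPM and the sums without MRPS27 were chosen after seeing the data.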

Additional observations from a re-analysis of the deposited data

How the results depend on the processing

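Of the 45 calls, 15 of 32 rises and 4 of 13 falls (MRPL1, MRPL22, MRPL48 and MRPS6) were made in all 19 settings, and no setting called a member in the opposite direction. A setting in which a member had no value was counted as not made. This was the only loss of MRPS21, with the GC trend removed, and of MRPS17_2, in uniquely placed exon and gene reads. DESeq2 kept 26 rises and 7 falls, and library totals kept 24 and 13. Falls numbered 20 on library totals and 8 with DESeq2. A size of at least 0.5 log2 units left 9 rises and 4 falls. Large-subunit falls numbered 5 both with DESeq2 and in exon-exon reads, and small-subunit falls 7 on library totals. Leaving out 1 library in turn gave 26 to 34 rises and 9 to 12 falls, with 14 to 21 and 6 to 10 in the large subunit and 10 to 13 and 2 to 5 in the small one (2 without wogonin 3). The shares of all genes called on library totals, with DESeq2 or with a library left out are not given here. The cause of these shifts was not tested.

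The large-subunit median (0.17) was 0.077 on library totals and upper-quartile scaling, 0.084 in uniquely placed gene reads, 0.10 in total gene reads and 0.22 with the length trend removed; over single omissions it ran from 0.13 to 0.15. The small-subunit median (0.11) was 0.021 on library totals and upper-quartile scaling, 0.16 in total and in uniquely placed gene reads, 0.17 with the length or GC trend removed and 0.19 by structure, with 0.069 to 0.18 over single omissions. Both scalings moved the median of all genes to -0.09. The small subunit's log2 ratio of shares (0.12) was 0.073 in exon-exon reads, 0.065 without MRPS27 and 0.10 to 0.14 over single omissions, and the large subunit's ran from -0.01 to 0.06. The log2 ratio of large over small reads (-0.09) was -0.11 in uniquely placed exon reads, -0.13 in uniquely placed gene reads, -0.061 on TPM and -0.036 without MRPS27, turned to 0.0022 in exon-exon reads, and ran from -0.10 to -0.08 over single omissions. MRPS18C turned from -0.30 to 0.0047 in uniquely placed exon reads. Calls of 2 against 2 libraries rest on a spread shared across genes, and with 1 library left out the lone one is assumed to vary like the others. MRPS21 and MRPL45 have no GC value. No paired analysis was possible because the groups share no replicate number.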
